A study of Drosophila melanogaster with 4 samples.

Results

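Of the 631 Rhino (Rhi, also called HP1D) ChIP-seq peaks that the authors called on the heterochromatin sequences of the *Drosophila* genome, 373 lay outside every tabulated piRNA source bin, and these are the subject here. They were chosen by position only, as peaks on a dm3 sequence whose name ends in Het that share no base with a 1 kb bin of the 2 deposited tables of Rhi-dependent source loci. The list from control ovaries (GFP_KD) held 202 such peaks, which is 62.7% (Wilson 95% interval 57.3 to 67.8) of its 322 heterochromatin peaks, out of 1066 peaks in all. The list from *enok*-depleted ovaries (*enok*_KD) held 171, or 55.3% (49.8 to 60.8) of 309, out of 817 in all.

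Rhi is a germline relative of HP1 that binds the repressive histone mark H3K9me3 and marks dual-strand piRNA clusters, transposon-rich stretches of mostly pericentromeric DNA whose transcripts become piRNAs that silence transposons. Clusters of this kind are fragments of many repeats, so short reads can be placed on only some of their sequence. Enok is a histone acetyltransferase, and the comparison asks where Rhi sits after its loss from the germline.

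In both groups MTD-Gal4, a set of drivers (otu-GAL4::VP16, nos-NGT and nos-VP16) active in the female germline, drove an shRNA inserted at attP2. The shRNA was directed against EGFP in GFP_KD (VALIUM20-EGFP.shRNA.1) and against *enok* in *enok*_KD (TRiP.HMS02634). Whole ovaries came from adults kept at 29 °C and 2 to 3 days old, and somatic follicle cells, in which the drivers are not used, are part of this tissue. Fewer germline cells and less Rhi per nucleus therefore cannot be told apart. The data are 4 libraries, an input and an IP for each knockdown, with 6657843 (*enok*_KD IP) to 8196249 (*enok*_KD input) uniquely mapped reads, and the IP of *enok*_KD was sequenced to 0.830 of the GFP_KD IP depth. The title and protocol name Rhino as the target, whereas the design text names RNA polymerase II, and neither the antibody nor the depletion of *enok* could be checked from these files. Each group has 1 library, so no difference has a replicate check or a p-value, and intervals cover the spread over peaks, bins or reads only. Neighbouring peaks share a library and often a locus, which makes those intervals too narrow.

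The lists differed most by number on 3LHet and most by ratio on 2LHet. On 3LHet, GFP_KD had 87 peaks outside the bins and *enok*_KD had 47, whereas on the bins of the same sequence the numbers were 67 and 74. Peaks outside the bins made up 56.5% (48.6 to 64.1) of all 3LHet peaks of GFP_KD. For *enok*_KD the share was 38.8% (30.6 to 47.7). These intervals cannot test the difference, since they count neighbouring peaks as independent and 3LHet was singled out for its large fall. A single stretch at 3LHet:1849360-1863124 held 10 of the GFP_KD peaks. On 2LHet the numbers went the opposite way, where GFP_KD had 5 peaks and *enok*_KD had 18. The numbers were 56 and 41 on 2RHet, 43 and 50 on 3RHet, 5 and 9 on XHet, and 6 and 6 on YHet. Thus the *enok*_KD list held 84.7% as many peaks outside the bins as the GFP_KD list, compared with 115% on the bins. The whole *enok*_KD list was also shorter, with 817 peaks against 1066, so a lower number was not particular to peaks outside the bins. When both lists were held to the 817 peaks with the best p, the order turned. Outside the bins there were then 136 GFP_KD and 171 *enok*_KD peaks. On 3LHet and 2RHet the *enok*_KD numbers were lower, and on 2LHet, 3RHet and XHet they were higher. Without 3LHet, which has the largest fall, the figure was 107.8%, and leaving this sequence out had to raise it. Without 2LHet it was 77.7%, and without 3RHet 76.1%. The difference in IP depth touches every such count, and its part was not tested.

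**Figure D1:**
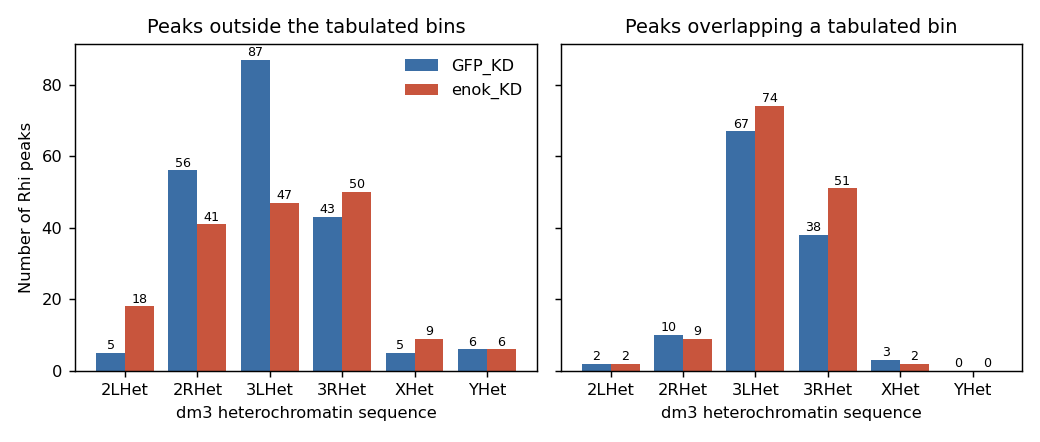
Number of Rhi peaks on each dm3 heterochromatin sequence, for peaks outside the tabulated bins (left) and peaks overlapping a bin (right), in 1 GFP_KD and 1 *enok*_KD library. Outside the bins 3LHet has 87 GFP_KD and 47 *enok*_KD peaks and 2LHet has 5 and 18, while on the bins 3LHet has 67 and 74.

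Although fewer, the *enok*_KD peaks outside the bins covered more sequence, 90.3 kb against 74.6 kb in GFP_KD (121%). This was not particular to them, since heterochromatin peaks on the bins covered 111.3 kb in *enok*_KD and 70.6 kb in GFP_KD. All peaks of each list together covered 571 kb in *enok*_KD and 632 kb in GFP_KD. Outside the bins the median length was 346 bp in *enok*_KD, compared with 265 bp in GFP_KD. The shortest peak was 158 bp in the GFP_KD list and 189 bp in the *enok*_KD list, so shorter lengths than 189 bp occur only in GFP_KD. Within 10 bp of these shortest lengths lay 28 GFP_KD and 12 *enok*_KD peaks outside the bins. The part of this limit in the lengths and numbers was not tested. When peaks of both lists less than 5 kb apart were joined into runs, the 3 runs with the most *enok*_KD sequence held 30.7 kb of it against 13.8 kb in GFP_KD. Without these runs the covered length was 59.7 kb in *enok*_KD and 60.8 kb in GFP_KD (98.2%). The runs were picked for their *enok*_KD sequence, so leaving them out had to lower this figure.

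The first of these runs lies in 3RHet:1640864-1667959, inside the span of cluster 37 (Enok-unbound in the tables, 25 bins) but in a stretch with few tabulated bins. GFP_KD had 9 peaks there covering 2.97 kb with fold enrichments of 2.11 to 7.89, and *enok*_KD had 17 covering 11.4 kb with fold enrichments of 2.96 to 16.9. The fold enrichment is the authors' value for the peak over its control. The strongest *enok*_KD peak outside the bins was here, at 3RHet:1644380-1646887 (2508 bp, 16.9-fold), and it covered a pair of GFP_KD peaks of 6.36-fold and 3.28-fold. The fifth strongest of that list, at 1654638-1655900 (9.23-fold), lay over GFP_KD peaks of 6.56- and 4.02-fold. The next 6 *enok*_KD peaks after the strongest, from 1647536 to 1654117, had no GFP_KD peak over them, and 3 of these (7.03-, 6.93- and 6.51-fold) were among the 5 strongest unshared peaks of that list. Within the same run the difference was not uniform. At 3RHet:1658980-1659269 the GFP_KD peak was 7.89-fold and its *enok*_KD counterpart 3.88-fold, and at 1662630-1662895 the values were 5.53 and 3.36. The neighbouring tabulated bin at 3RHet:1643001-1644000 had the same direction as the strongest peak. Of the 53 bins within 1 kb of a peak outside the bins, it had the largest rise. The bin was read from the same IP libraries as the peak and is not a separate check. Its IP signal was 29.8 RPM in GFP_KD and 93.1 RPM in *enok*_KD over inputs of 11.2 and 10.6 RPM, a log2 change of 1.73 ± 0.26 (counting SE, from 80, 220, 80 and 570 reads in GFP_KD input, GFP_KD IP, *enok*_KD input and *enok*_KD IP).

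The other 2 runs lie inside the span of cluster 12 on 3LHet (Enok-unbound, 56 bins over 1402377-1557939), in stretches between its bins. At 3LHet:1481443-1492446, GFP_KD had 7 peaks covering 4.59 kb with fold enrichments of 2.85 to 4.72. In *enok*_KD a single peak of 6982 bp and 13.05-fold, the longest outside the bins in either list, ran across 4 of them (2.89-, 3.72-, 4.18- and 2.93-fold), and 3 further peaks brought the covered length to 9.10 kb. At 3LHet:1445200-1456263, GFP_KD had 6 peaks covering 6.27 kb, among them its own longest (2871 bp, 3.34-fold) and second longest (1914 bp, 5.07-fold). A single *enok*_KD peak of 6460 bp and 9.15-fold spanned both, and the 4 *enok*_KD peaks there, the third longest of that list among them (1453556-1456263, 2708 bp, 5.89-fold), covered 10.1 kb. The third longest of GFP_KD was at 3LHet:2061672-2063275 (1604 bp, 5.12-fold), 1.67 kb from a bin of cluster 13. In both stretches of cluster 12 separate, moderate control peaks stood where the *enok*_KD list had a continuous and stronger block.

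On 2LHet the *enok*_KD list held more peaks at places far from any bin. At 2LHet:40700-50647, about 105 to 114 kb from the nearest bin (cluster 35, Enok-bound), GFP_KD had 4 peaks covering 1.19 kb and *enok*_KD had 6 covering 5.06 kb. The 1977 bp *enok*_KD peak at 45144-47120 was 9.85-fold and lay over 3 GFP_KD peaks of 4.87-, 3.71- and 3.87-fold. The exception was 42944-43168, which was 7.38-fold in GFP_KD and 4.34-fold in *enok*_KD. A few kb on, at 55901-59842, *enok*_KD had 4 peaks of 2.30- to 4.41-fold and GFP_KD had none. At the end of cluster 84 (Enok-unbound) and just past it, 2LHet:363174-368844 held 6 *enok*_KD peaks of 3.04- to 5.88-fold and 1 GFP_KD peak of 3.91-fold.

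The longest row of control-only peaks was at 3LHet:1849360-1863124, 12.4 to 25.7 kb before the first bin of cluster 72 (Enok-unbound), where GFP_KD had 10 peaks covering 3.48 kb and *enok*_KD had none of any kind. These 10 had closely similar values, with fold enrichments of 3.59 to 4.92 and −log10 p of 10.7 to 19.6. At 2RHet:763562-769398, beside cluster 134, GFP_KD had 5 peaks of 2.51- to 3.46-fold and *enok*_KD none. At 3LHet:2162725-2178069 the numbers were 8 and 1, with GFP_KD fold enrichments of only 1.34 to 2.33. In both lists together there were 119 runs, of which 60 (50.4%) held peaks of both lists, 35 only GFP_KD peaks and 24 only *enok*_KD peaks outside the bins. Of the GFP_KD-only runs, 32 had no *enok*_KD peak of any kind, and the remaining ones had one on a bin. An example is 3LHet:662633-666396 near cluster 130, where the strongest control peak (665519-666396, 7.03-fold) lay under a 10.5-fold *enok*_KD peak that reached a bin.

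**Figure D2:**
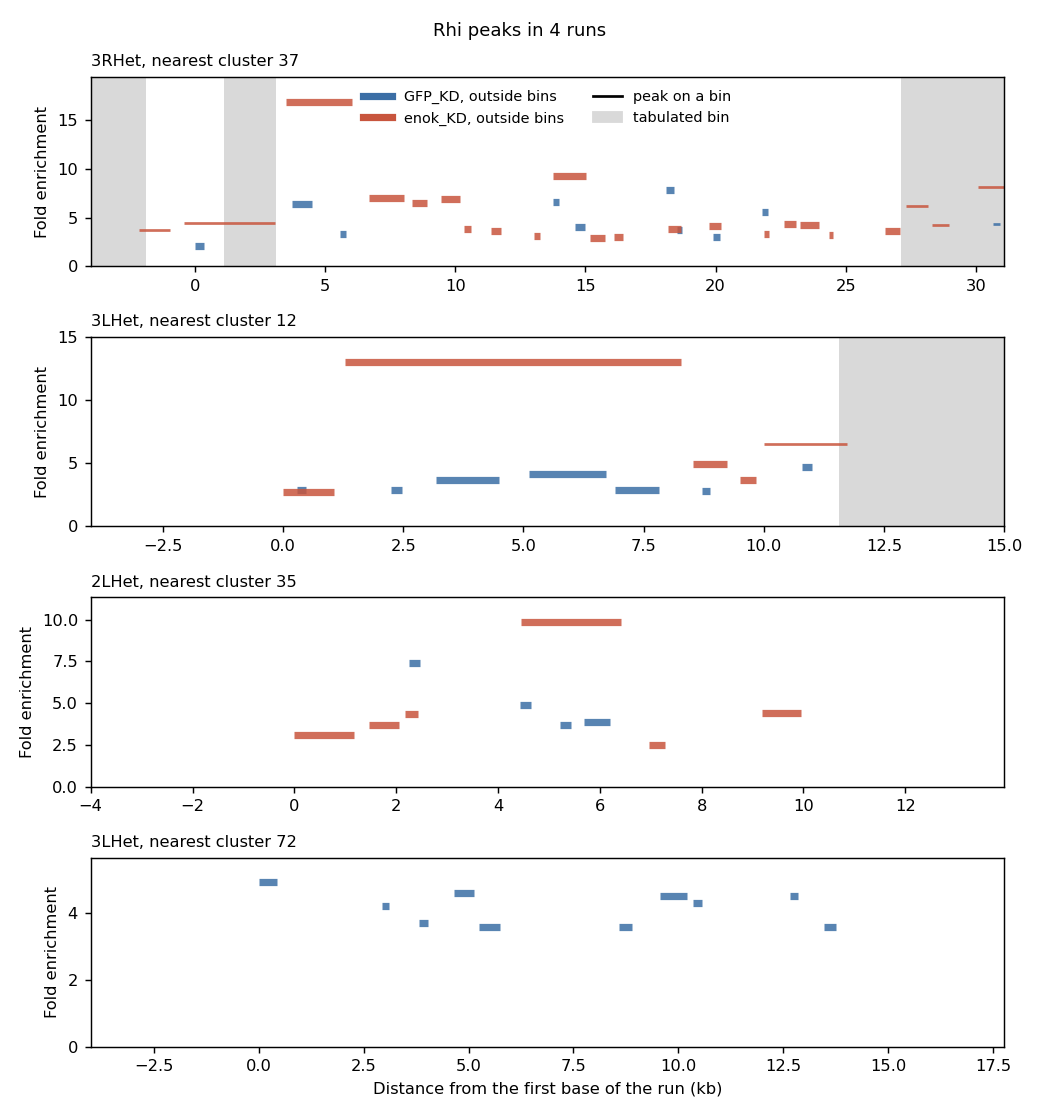
Rhi peaks in 4 runs, drawn at their fold enrichment (vertical axis) against the distance in kb from the first base of the run, with thick lines for peaks outside the bins, thin lines for peaks on a bin and grey for tabulated bins. In the top 3 panels *enok*_KD peaks reach 16.9-, 13.05- and 9.85-fold, while the lowest panel holds 10 GFP_KD peaks and no *enok*_KD peak.

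Of the 5 strongest control peaks, those at 3RHet:1658980-1659269 and 2LHet:42944-43168 belong to runs described above, and the others do not. The highest was at YHet:317328-317683, 9.94-fold in GFP_KD and 4.27-fold in *enok*_KD. The next was at 3RHet:1486548-1486920, 8.09-fold and 13.6 kb from cluster 69, with no *enok*_KD peak over it. At 3RHet:1211669-1211965, 35 bp from a bin of cluster 70 (Enok-bound), the values were 7.38 in GFP_KD and 6.30 in *enok*_KD. The remaining strongest unshared GFP_KD peaks were weaker, at 5.20- to 5.69-fold (2RHet:2925511-2925728, 3LHet:995543-995717, 2RHet:1685943-1686239 and 3LHet:2437855-2438213). In *enok*_KD the strongest unshared peak was at 3RHet:613349-613921 (8.50-fold), 3.72 kb from cluster 50. On 2RHet the peak at 1091885-1092425, 23.6 kb from cluster 98, was 10.9-fold in *enok*_KD and 6.55-fold in GFP_KD.

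All 6 GFP_KD peaks on YHet had an *enok*_KD peak over them and the reverse also held, although ovaries come from females, which lack a Y chromosome, and the tables hold no bin there. The source of these reads was not tested. Of the 6 positions, 4 had the higher fold enrichment in *enok*_KD (61756-61928, 2.80 and 4.17; 301611-301768, 2.62 and 4.95; 343098-343275, 2.80 and 4.24; 137145-137379, 1.45 and 1.55), and 2 in GFP_KD (317328-317683, above, and 324602-324954, 6.06 and 5.34). On XHet, by contrast, every peak outside the bins was weak, at 1.29- to 1.79-fold in GFP_KD (5 peaks) and 1.31- to 1.66-fold in *enok*_KD (9 peaks), and all had cluster 92 as the nearest. Fold enrichments under 2 occurred outside the bins in 19 of the 202 GFP_KD peaks (9.41%) and in *enok*_KD in 22 of 171 (12.9%). On the bins they occurred in 2 of 120 (1.67%) and 1 of 138 (0.725%). In *enok*_KD these low peaks had a median −log10 p of 12.2, close to the 13.7 of all its peaks outside the bins, whereas in GFP_KD the values were 6.17 and 12.6. The *enok*_KD median rests mostly on few places. Of the 22 low peaks, 9 were on XHet (median 14.6) and 6 in the run 3LHet:615328-619955 (10.3 to 16.0). A low fold did not mean a weak score in those places. Single low peaks on 2RHet, 3RHet and YHet had 5.47, 8.12 and 12.7.

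As a whole, peaks outside the bins were weaker than heterochromatin peaks on the bins. In GFP_KD they had a median of 3.39-fold (quartiles 2.67 and 4.42) and those on the bins one of 4.09-fold (3.38 and 5.98), a ratio of 0.829. In *enok*_KD the medians were 3.51 (2.71 and 4.30) and 4.27, a ratio of 0.823, so the step was of like size in both lists. A randomly chosen peak on a bin exceeded one outside in 66.9% of pairs in GFP_KD and 68.8% in *enok*_KD. By sequence, the ratios in GFP_KD and *enok*_KD were 0.775 and 0.729 on 3LHet, 0.759 and 0.887 on 2RHet, and 0.981 and 0.873 on 3RHet, where the GFP_KD medians were nearly equal. Peaks outside were also shorter (median 265 and 346 bp, against 320 and 422 bp on the bins), and a longer peak is more likely to touch a bin. Among peaks under 500 bp the ratios were 0.892 and 0.914.

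**Figure D3:**
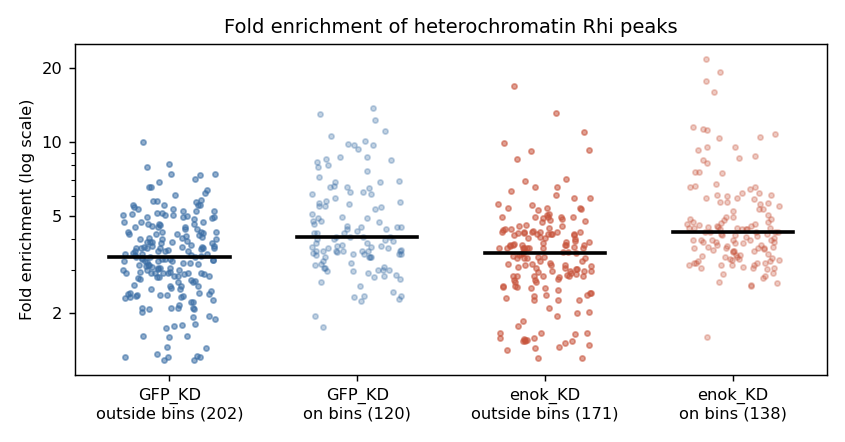
Fold enrichment (log scale) of every heterochromatin Rhi peak, outside and on the tabulated bins, in each list, with black lines at the medians and sideways scatter only to separate points. Medians are 3.39 and 4.09 in GFP_KD and 3.51 and 4.27 in *enok*_KD, and the ranges overlap widely.

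Many of these peaks lay close to the tabulated loci without touching them. The distance to the nearest bin had a median of 8.93 kb (interquartile range 1.38 to 28.6) for GFP_KD peaks and 7.92 kb (1.47 to 46.0) for those of *enok*_KD, over the 196 and 165 peaks on sequences with bins. Under 1 kb lay 44 GFP_KD peaks (22.4%) and 33 *enok*_KD peaks (20%), and at 50 kb or more lay 33 (16.8%) and 39 (23.6%). Between the first and the last bin of some cluster, its span, lay 77 (39.3%) and 75 (45.5%). The nearest bin belonged to a cluster of the Enok-bound class for 39 GFP_KD peaks (19.9%) and 40 *enok*_KD peaks (24.2%), while that class holds 459 of the 1498 heterochromatin bins (30.6%) and 10 of the 48 heterochromatin clusters (20.8%). This class is the tables' label and its rule is not given in the sources used here.

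The peaks were spread over 41 of the 48 heterochromatin clusters as their nearest, with more peaks in *enok*_KD at 18, fewer at 20 and the same number at 3. Cluster 37 on 3RHet was nearest to most, with 13 GFP_KD and 20 *enok*_KD peaks. On 3LHet, 10 of 13 clusters had fewer peaks in *enok*_KD and 3 had more (cluster 26 with 5 and 11, cluster 15 with 3 and 5, cluster 44 with 0 and 2). Of those with most peaks there, cluster 12 had 13 and 8, cluster 13 had 15 and 6, and cluster 72 had 15 and 5. Cluster 12 nevertheless had more covered length in *enok*_KD (10.9 kb in GFP_KD, 19.2 kb in *enok*_KD), whereas cluster 13 had 7.34 and 3.25 kb and cluster 72 had 4.95 and 1.69 kb, so a lower number of peaks meant fewer and longer peaks at the first and less covered sequence at the others. Cluster 133 on 2RHet had 9 and 11, among them the most distant of all. These were at 2RHet:17-244, at the very start of the sequence and 507 kb from a bin (5.11-fold in GFP_KD, 2.69 in *enok*_KD), and at 2RHet:145276-145504, 362 kb away (7.29 and 6.56), so both were present in each list. At 187313-187476, 320 kb away, only GFP_KD had a peak (3.88-fold). The third most distant *enok*_KD peak was at 249504-249785, 257 kb away (2.55-fold), over a GFP_KD peak of 2.30-fold.

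With the lists as they are, of unequal number, about an equal share of each was found again in the other. Of the 202 GFP_KD peaks outside the bins, 109 (54.0%, 47.1 to 60.7) shared 1 base or more with a peak of the *enok*_KD list, beside 49.1% of all 1066 GFP_KD peaks and 63.3% of those on heterochromatin bins. Of the 171 *enok*_KD peaks, 88 (51.5%, 44.0 to 58.8) overlapped a GFP_KD peak, beside 63.9% of all 817 *enok*_KD peaks and 56.5% on heterochromatin bins. The control share was thus near that of its whole list, and the *enok*_KD share below it. The shares depend on the overlap rule. With a reciprocal overlap of 50% they were 27.7% and 32.2%. The counterpart was a peak on a bin for 13 of the 109 shared GFP_KD peaks and for 2 of the 88 shared *enok*_KD peaks. Of the unshared peaks, 17 of 93 in GFP_KD and 27 of 83 in *enok*_KD had a peak of the other list within 1 kb.

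The overlap differed by position, most of all in GFP_KD. Inside a cluster span 79.2% (68.9 to 86.8) of the GFP_KD peaks had an *enok*_KD counterpart, and outside all spans 35.3% (27.3 to 44.2) had one. Of the 61 shared GFP_KD peaks inside spans, 22 lay in the 3 runs with the most *enok*_KD sequence. In those runs several control peaks often shared 1 broad *enok*_KD peak, which raises the share inside spans. Peaks inside spans were longer (median 301 against 236 bp) and of like fold enrichment (3.48 against 3.37), and among peaks under 500 bp the shares were 71.9% and 32.4%. The contrast was widest on 3LHet, where 40 of 50 GFP_KD peaks inside spans (80%) and 5 of 37 outside (13.5%, 5.91 to 28.0) were shared. Without the row of 10 control-only peaks before cluster 72, the last share was 5 of 27 (18.5%, 8.18 to 36.7). On all other sequences together 77.8% (59.2 to 89.4) inside and 45.1% (34.8 to 55.9) outside were shared. On 3RHet the shares were 85% inside and 52.2% outside, and on 2RHet 50% of only 6 peaks inside and 32% of 50 outside. For *enok*_KD peaks the contrast was smaller, 57.3% (46.1 to 67.9) inside and 43.3% (33.6 to 53.6) outside, with overlapping intervals, and without 3LHet it was 41.7% and 42.7%. By distance, peaks under 1 kb from a bin were shared in 68.2% of cases for GFP_KD and 72.7% for *enok*_KD, compared with 30.3% and 20.5% of those at 50 kb or more.

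**Figure D4:**
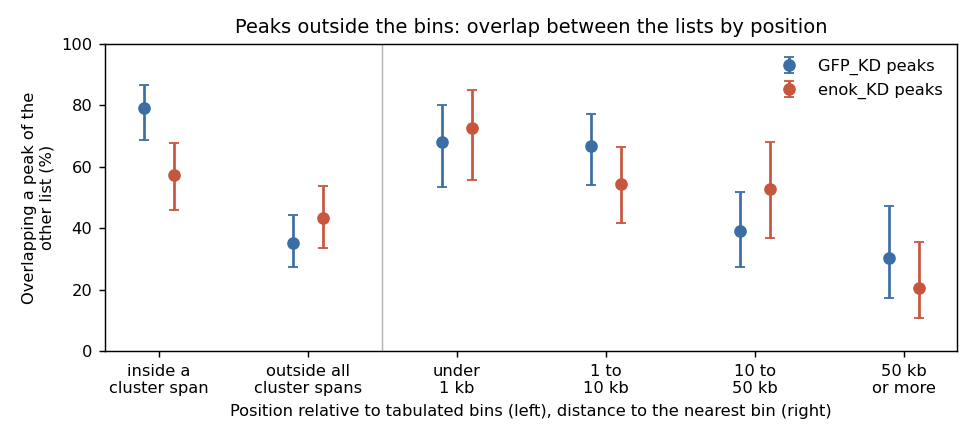
Percentage of Rhi peaks outside the bins that overlap a peak of the other list, by position relative to cluster spans (left of the line) and by distance to the nearest bin (right), with Wilson 95% intervals over peaks from 1 library each. In GFP_KD the share is 79.2% inside spans and 35.3% outside, and it is lowest in both lists at 50 kb or more (30.3% and 20.5%).

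Shared peaks were longer and slightly stronger than unshared ones. In GFP_KD the median length was 343 against 209 bp and the median fold enrichment 3.65 against 3.30. In *enok*_KD these were 384.5 against 294 bp and 3.79 against 3.36. Hence the peaks seen in only 1 list were in the main shorter, but the interquartile ranges of fold enrichment (2.80 to 4.87 for shared and 2.58 to 3.93 for unshared GFP_KD peaks) overlapped.

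At positions with a peak in both lists, no general shift in strength could be stated. Over the 109 shared GFP_KD peaks the median log2 ratio of fold enrichment, *enok*_KD over GFP_KD, was 0.15 (0.016 to 0.25), with 68 higher and 41 lower in *enok*_KD. When the pairing started from the *enok*_KD peaks it was 0.0037, and with a reciprocal overlap of 50% it was -0.074. The first value takes the strongest *enok*_KD peak over each control peak, so that a broad *enok*_KD peak counts several times. At least 1.5 times higher in *enok*_KD were 28 of the 109 (25.7%). The share was 21.8% of all 523 overlapping GFP_KD peaks and 39.5% of the 76 on heterochromatin bins. At least 1.5 times lower were 8 of the 109 (7.34%), beside 14.3% of all overlapping peaks and 11.8% of those on heterochromatin bins. The highest ratios were those under the broad peaks of clusters 37 and 12 (3RHet:1646448-1646653, 3.28 and 16.9; 3LHet:1483682-1483911, 2.89 and 13.05; 3LHet:1488356-1489264, 2.93 and 13.05). The lowest ratios were at YHet:317328-317683 (9.94 and 4.27), 3LHet:2094553-2095280 beside cluster 13 (5.20 and 2.37) and 3RHet:1658980-1659269 (7.89 and 3.88). By sequence, the median log2 ratio was 0.21 over 45 peaks on 3LHet, 0.094 over 29 on 3RHet and -0.16 over 19 on 2RHet.

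**Figure D5:**
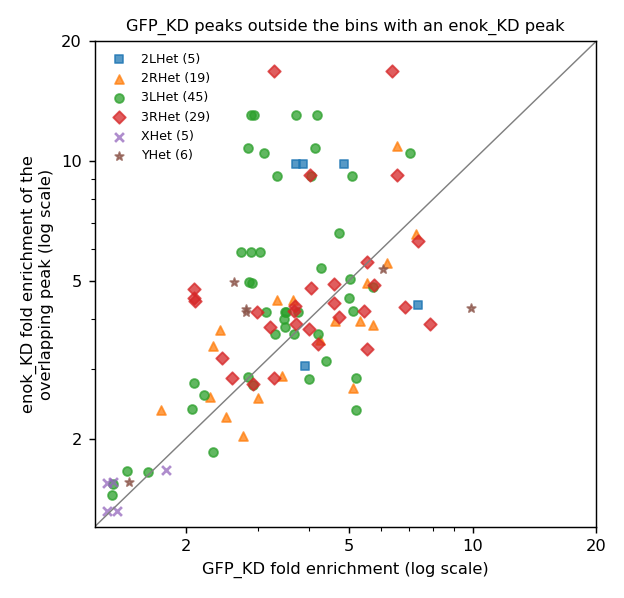
Fold enrichment of the 109 GFP_KD peaks outside the bins that have an *enok*_KD peak over them (horizontal axis) against that of the strongest such *enok*_KD peak (vertical axis), both on log scales, with 1 symbol per dm3 sequence and its number of peaks. The line marks equal values, 68 points lie above it and 41 below, and the points at 13.05 and 16.9 on the vertical axis share 1 broad *enok*_KD peak each.

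The peak lists do not give signal beyond the peaks, but 53 tabulated bins lay within 1 kb of a peak of either list outside the bins. In these bins occupancy, as log2 of IP over input, had a median of 1.75 in GFP_KD and 1.64 in *enok*_KD, above the 0.95 and 0.88 of the other 1444 heterochromatin bins. Many of these bins hold a called peak themselves. In the 36 that hold one the medians were 1.84 in GFP_KD and 1.78 in *enok*_KD. In 174 other heterochromatin bins with a peak they were 1.35 and 1.88, so the near bins were higher in GFP_KD only. In the 17 near bins without a peak the medians were 1.32 in GFP_KD and 0.91 in *enok*_KD. They were 0.92 and 0.79 in 1270 other heterochromatin bins without a peak, so that little of the difference was left in *enok*_KD. The 53 bins were also covered more deeply than the other 1444, with a median of 168 against 32 reads in the GFP_KD input. In the 17 bins without a peak this median was 54, against 27 in the 1270 others. The part of this depth in where peaks could be called was not tested. The same IP libraries gave both peaks and bins, so the higher level is a description. The median change from GFP_KD to *enok*_KD was -0.11 (-0.24 to 0.28), an interval that includes 0, and it was 0.13 without 3LHet. In the other bins it was -0.051. Among bins with a peak the median change was 0.075 (-0.19 to 0.39) in the 36 near bins and 0.56 (0.41 to 0.77) in the 174 others. Among bins without a peak it was -0.24 (-0.58 to 0.030) in the 17 near bins and -0.12 (-0.16 to -0.063) in the 1270 others. At least 2-fold higher in *enok*_KD were 4 bins (7.55%), where 9.95% of all heterochromatin bins were, and at least 2-fold lower were 5 (9.43%), where 11% were; both shares are near those over all these bins. The lowest change was in the bin 3LHet:994001-995000 of cluster 57 (Enok-bound), beside the unshared GFP_KD peak at 995543-995717. Its IP signal was 87.4 RPM in GFP_KD and 17.7 RPM in *enok*_KD over inputs of 3.60 and 5.35 RPM, a log2 change of -2.88 ± 0.53 (counting SE).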

How the data were processed

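Rhino ChIP-seq data from 4 ovary libraries were used. The authors aligned single-end reads to dm3 with Bowtie2 2.2.1, without mismatches, and kept unique alignments, so repeats that cannot be placed do not contribute. Trimmomatic and MACS2 appear in the submitters' processing notes. Their versions and the control used for peak calling are not given in the sources used here. In the deposited peak lists the authors give positions, length, fold enrichment (a ratio) and −log10 of p and q for 1 list per IP, and the 2 lists were compared as they are. The deposited bin tables give RPM, which the authors divided by a mappability index. From the RPM steps and an index searched in 3 decimals between 0.5 and 1, reads whole to within 0.002% of their number were found in all 2364 bins, which gave the depths and the counting SE. Only 1 index gave whole reads in 1590 of them (67.3%). For the others the largest that did was taken, and their reads are less certain.

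The lists and the tables were joined by position (Python 3.11.15, pandas 2.3.3, numpy 2.4.6), with overlap as at least 1 shared bp and distance as the bases between a peak and the nearest bin. Shares have Wilson and medians order-statistic 95% intervals (scipy 1.17.1). Bins enter as log2 of IP over input without a pseudocount, and 1 heterochromatin bin with 0 reads in a library was left out. Named per list were the 5 strongest peaks, the 5 strongest unshared, the 3 longest and the 3 most distant, then the 3 highest and 3 lowest ratios of shared peaks, the 4 clusters nearest to most peaks with ties, and every Het sequence. Runs and clusters beyond this rule were chosen after their values were seen. The peaks, rules and alternatives were chosen with earlier results of these data known. Gene annotation and genome sequence were not used here. The scripts were tested on simulated data.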

Additional observations from a re-analysis of the deposited data

How the results depend on the processing

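Each of 13 results was recomputed under other settings, 68 values in all, of which 11 were chosen after seeing the data and 55 stayed within the interval of the reported value or, for ratios, within 1.5 times it on the same side. Among these 55, the median change in bins near these peaks still turned from -0.11 to 0.13 without 3LHet, and the median log2 ratio of shared peaks went from 0.15 to 0.047. The number of peaks outside the bins in *enok*_KD as a share of GFP_KD was 107.8% without 3LHet, and the covered length 98.2% without the 3 runs described, in place of 121%. The overlap of GFP_KD peaks moved from 54.0% to 62.0% when only peaks of 3.72-fold or more, the median of the heterochromatin peaks, were kept, 62.4% with a peak within 1 kb, and 27.7% with a reciprocal overlap of 50%. That of *enok*_KD peaks moved from 51.5% to 63.5%, 67.3% and 32.2% under the same settings, to 40.4% where 50% of the peak had to be covered, and to 38.0% when both lists were held to the 817 peaks with the best p. Under this last setting the GFP_KD share was 58.1%. The median log2 ratio of shared peaks was -0.074 with the reciprocal rule, 0.31 for −log10 p and 0.0037 from the *enok*_KD side. Apart from the construction of these settings, the cause was not tested. Joining runs within 2 or 10 kb gave 42.4% and 52.5% of runs with both lists. No paired analysis was possible because there is 1 library per group. Fold enrichments come in steps, and 43 GFP_KD and 35 *enok*_KD peaks share a value with another, which limits fine ranking.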
